A study of Sus scrofa with 12 samples.

Results

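S100G, TRPV6, ATP2B1 and VDR, 4 genes of intestinal calcium absorption, were examined in the jejunum of 12 piglets by RNA-seq. They were taken by gene name from a table of 41264 assembled loci, of which 23614 carried 1 of 17049 gene names, and filled 6 rows. TRPV6 and VDR had 2 rows each, which were summed, and ATP2B1 was listed under its Ensembl identifier, ENSSSCG00000027898. The libraries fell into 4 groups of 3 biological replicates. W_Con were 21-day-old sucking piglets, collected on the day of weaning from litters of sows on a corn and soybean meal diet, and PW_Con were 28-day-old weaned piglets from such litters. W_Res and PW_Res were the same ages from sows whose diet held 300 mg/kg resveratrol, a plant polyphenol, from 20 days after breeding until the end of lactation. Litters had been cross-fostered within a diet. Weaning and the added age cannot be told apart. The study's methods name 1 male piglet per litter and age for control litters, the labels link no library to a litter, and P values describe the spread between these animals. The labels name Landrace boars and say that weaned piglets stayed in the nursing pens, whereas the study's methods name another cross and a move to a nursery.

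Calcium crosses the gut wall in part through the enterocyte itself. TRPV6, a calcium channel of the brush border, lets the ion in, S100G, a small cytosolic calbindin, buffers and ferries it, and ATP2B1, a calcium pump of the plasma membrane, moves it out on the basolateral side. VDR, the nuclear receptor of the hormonal form of vitamin D, is a known activator of TRPV6 and S100G, and both are classically strongest in the duodenum and fall along the small intestine.

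Marker genes of the position along the gut were therefore read in each library. A region score was the mean log2(FPKM + 1) of 8 distal small intestinal genes minus that of 8 proximal ones, where FPKM counts fragments scaled to transcript length and to the mapped fragments of the library. It was 2.67, 2.67 and 2.73 in the PW_Con libraries, 2.99, 1.70 and -3.23 in W_Con, 0.70, -2.45 and 2.59 in W_Res, and 2.89, -1.02 and -1.78 in PW_Res. The score was above 0 in 8 libraries and below 0 in 4, namely W_Con replicate 3, W_Res replicate 2 and PW_Res replicates 2 and 3. FABP6, the ileal bile acid-binding protein, spanned 1.70 to 24110 FPKM, and its level was 9.10 FPKM in W_Con replicate 3, 12.2 in W_Res replicate 2, and 1.70 and 4.81 in PW_Res replicates 2 and 3. GATA4, a transcription factor of the proximal small intestine, was at 19.1 to 24.1 FPKM in those 4 libraries and at 0.758 to 9.65 FPKM in the other 8. These 2 markers were picked after their values were seen, and not every marker split the libraries in that way. CYBRD1, an iron reductase among the proximal genes, was highest in W_Res replicate 3 and PW_Res replicate 1, at 74.2 FPKM in each, and 14.5 FPKM in PW_Res replicate 2. APOA4, an apolipoprotein of the same list, was highest in W_Con replicate 2, at 5451 FPKM. Enterocyte markers were present in all libraries, with 10 of them summing to 1505 to 5622 FPKM. Summed smooth muscle markers (5 genes) reached 644 to 3855 FPKM in W_Res against 148 to 621 FPKM in the other groups. Replicates of a group correlated at 0.881 to 0.961 across 12886 genes. In bulk tissue fewer cells of a type and less RNA per cell cannot be told apart.

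S100G was the most abundant of the 4 genes and spanned the widest range over the 12 libraries, although TRPV6 had the larger SD relative to its mean in each group. Its level was 136, 415 and 2715 FPKM in the 3 W_Con libraries (1089 ± 1415, mean ± SD, n = 3) and 71.6, 62.4 and 33.6 FPKM in PW_Con (55.8 ± 19.8). Every weaned control piglet therefore lay below every sucking control piglet. In resveratrol litters it was 146, 1195 and 115 FPKM in W_Res (485 ± 615) and 262, 317 and 972 FPKM in PW_Res (517 ± 395). Those groups overlapped, and all 3 PW_Res libraries lay above all 3 PW_Con libraries. Across the 12 libraries the highest level was 80.8 times the lowest.

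TRPV6 was scarce outside 3 libraries. It measured 0.947, 2.27 and 26.6 FPKM in W_Con (9.95 ± 14.5) and 0.793, 2.33 and 0.450 FPKM in PW_Con (1.19 ± 1.00). In W_Res it was 1.67, 16.0 and 1.06 FPKM (6.23 ± 8.43), and in PW_Res 2.40, 1.49 and 21.4 FPKM (8.41 ± 11.2). A single library in each of W_Con, W_Res and PW_Res stood at 16.0 FPKM or more, while the remaining 9 libraries lay between 0.450 and 2.40 FPKM. All 4 pairs of groups compared below overlapped. The smaller of its 2 rows held at most 4.12 FPKM.

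ATP2B1 was 16.1, 18.1 and 127 FPKM in W_Con (53.8 ± 63.6) and 6.99, 3.29 and 5.19 FPKM in PW_Con (5.16 ± 1.85). It was 10.8, 12.1 and 5.25 FPKM in W_Res (9.39 ± 3.65) and 10.8, 9.39 and 21.8 FPKM in PW_Res (14.0 ± 6.77). The W_Con libraries lay above those of PW_Con and of W_Res without overlap, and the PW_Res libraries above those of PW_Con. The 127 FPKM of W_Con replicate 3 stood far from the other 11 libraries, which spanned 3.29 to 21.8 FPKM.

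VDR was the steadiest, with a highest level only 2.76 times its lowest. It was 39.2, 37.5 and 101 FPKM in W_Con (59.1 ± 35.9) and 47.6, 56.7 and 57.9 FPKM in PW_Con (54.1 ± 5.60). It was 53.1, 104 and 45.9 FPKM in W_Res (67.5 ± 31.5) and 75.1, 71.6 and 75.6 FPKM in PW_Res (74.1 ± 2.19). Both weaned groups were narrow and did not overlap, whereas each sucking group held 1 library above 100 FPKM, which was the library with a region score below 0. The smaller of its 2 rows gave 3.53 to 8.20 FPKM.

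**Figure D1:**
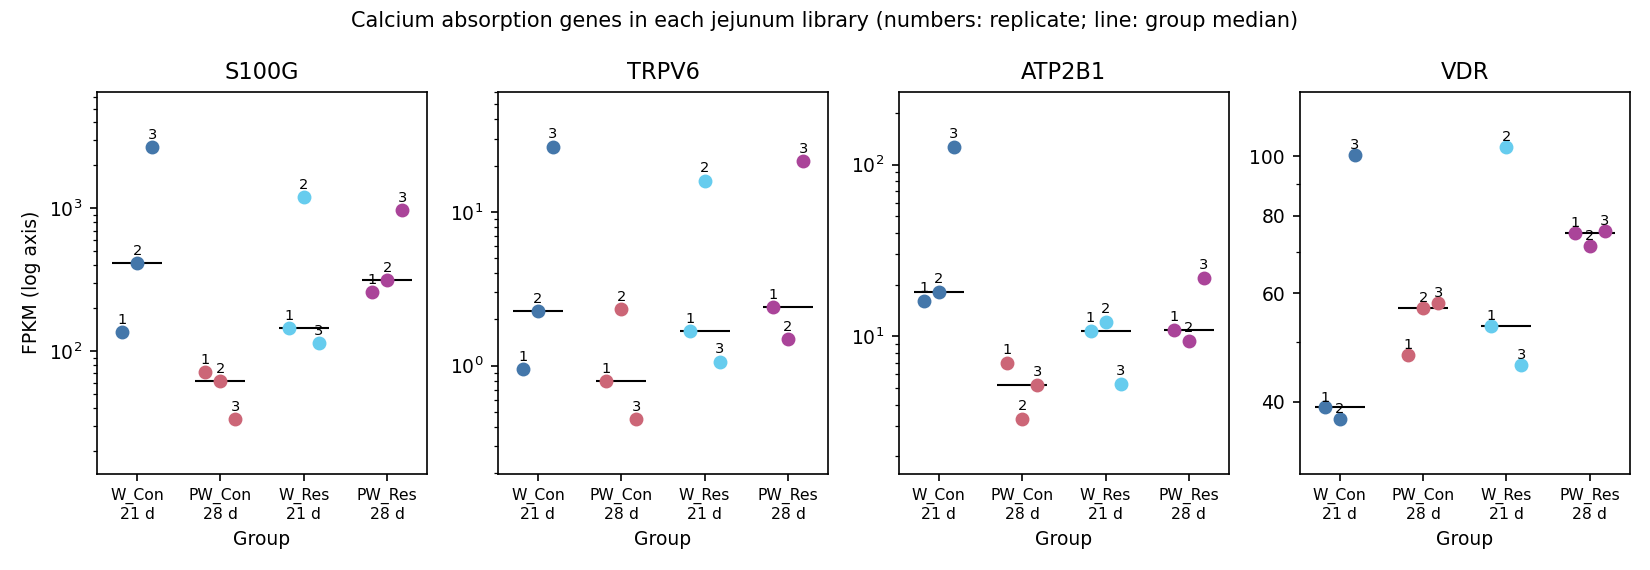
FPKM (log axis) of S100G, TRPV6, ATP2B1 and VDR in the 12 jejunum libraries by group, each point 1 piglet numbered by its replicate and each line the group median of 3. S100G and ATP2B1 were lower in all PW_Con libraries than in any W_Con library, whereas W_Res and PW_Res overlapped for all 4 genes.

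The first comparison asked what weaning did in control litters. S100G and ATP2B1 fell, and TRPV6 and VDR did not pass the test used here. The study lists S100G, TRPV6 and ATP2B1, the last by its Ensembl identifier, as down-regulated genes from these same libraries. Calls on these genes that use those libraries are therefore no separate support, and for TRPV6 the study's call differs from the one here. The standard was the study's, an unadjusted P under 0.05 with a log2 fold change above 1 or below -1. It was tested with limma on log2(FPKM + 1). Of the 4 genes 2 met it, against 3.31% of all 12611 genes tested (1.82% in the direction of a fall). S100G fell by 3.31 on the log2 scale (SE 0.98, adjusted p = 0.172), 9.91-fold on that scale, and its mean FPKM was 19.5 times higher before weaning than after. ATP2B1 fell by 2.54 (SE 0.74, 95% interval -4.28 to -0.80, adjusted p = 0.170), 5.82-fold. For TRPV6 the difference was -1.45 (SE 0.92, 95% interval -3.62 to 0.72, adjusted p = 0.461) and for VDR 0.02 (SE 0.37, 95% interval -0.85 to 0.89, adjusted p = 0.982). In the same comparison 8 of 8 proximal markers were lower (median -1.11, 2 past the standard). Of 8 distal markers 7 were higher (median 1.22, 1 past it). Of 10 enterocyte markers 1 fell past it, and of 7 lymphocyte markers 1 rose past it. The region and enterocyte scores were fitted as covariates, and the part of the lymphocyte markers was not tested.

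The adjusted p is that of Benjamini and Hochberg over all genes tested, and it was not below 0.05 for any of the 4 genes here or in the comparisons that follow. At 3 against 3 an exact two-sided permutation test cannot go below 0.1, the value that S100G and ATP2B1 reached. Groups without overlap were found for 25.3% of all genes. The sizes leaned on W_Con replicate 3. Without it S100G differed by -2.14 and ATP2B1 by -1.60, and both still met the standard, as they did on leaving out any other of the 6 libraries. Without W_Con replicate 1 they were larger, at -4.29 and -3.05. VDR was 0.48 higher after weaning without W_Con replicate 3, at an unadjusted P under 0.05 but inside the fold limit (adjusted p = 0.277). TRPV6 differed by -0.30 without that library and met the standard without W_Con replicate 1 (-2.21). It also met the standard under a linear model built like that of Ballgown, the study's own package (-1.77). That model, called Ballgown's model below, was fitted to the same log2(FPKM + 1) values with a library covariate and an ordinary t test. The Ballgown package itself was not run.

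In resveratrol litters the same comparison showed no fall. None of the 4 genes met the standard, against 4.75% of 13013 genes tested (129 higher and 489 lower, or 230 and 286 after median-of-ratios scaling). The weaned minus sucking difference was 0.67 for S100G (SE 0.91, 95% interval -1.47 to 2.80, adjusted p = 0.774), 0.34 for TRPV6 (SE 1.02, adjusted p = 0.905), 0.51 for ATP2B1 (SE 0.39, 95% interval -0.41 to 1.43, adjusted p = 0.593) and 0.23 for VDR (SE 0.32, adjusted p = 0.781). These intervals leave room for changes of more than 2-fold in S100G, TRPV6 and ATP2B1. Ballgown's model gave larger values, 3.31 for S100G, 2.71 for TRPV6, 1.19 for ATP2B1 and 1.36 for VDR, none past the standard (adjusted p = 0.999537 for each). In this comparison 5 of 5 smooth muscle markers fell past the standard, with a median of -2.48, and their part in the result was not tested. Without W_Res replicate 2, the sucking library with the most smooth muscle RNA and a region score below 0, S100G differed by 1.73 and met the standard in the direction of a rise.

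The difference between the 2 weaning effects was tested in 1 model of all 12 libraries. It met the standard for S100G, at 3.97 on the log2 scale (95% interval 0.68 to 7.27, adjusted p = 0.298), and for ATP2B1, at 3.05 (SE 0.93, adjusted p = 0.251), but not for TRPV6 (1.79, SE 1.55, adjusted p = 0.626) or VDR (0.20, SE 0.52, adjusted p = 0.891). Across all genes 7.76% of 12886 met it, 233 (1.81%) in this direction and 767 (5.95%) in the other, or 387 and 515 after median-of-ratios scaling. The S100G value was 2.80 without W_Con replicate 3, where it no longer met the standard, and likewise 3.53, 3.36 and 3.39 without W_Res replicate 1, W_Res replicate 3 and PW_Res replicate 3. ATP2B1 met the standard on leaving out any 1 of the 12. With Ballgown's model neither gene met it (S100G 2.94 and ATP2B1 1.80, adjusted p = 0.99967 for both). The 5 smooth muscle markers differed between litter sets in their weaning effect by a median of -2.81, 4 of them past the standard. Above 0 were 8 of 8 proximal markers (median 0.82, 1 past it), and below 0 were 7 of 8 distal markers (median -1.20, 0 past it). Enterocyte markers had a median of 0.34 and lymphocyte markers -0.48, with 1 of each past it. The part of the smooth muscle and lymphocyte markers in the result was not tested. Averaged over both litter sets, the weaning effect met the standard for none of the 4 genes against 1.42% of all genes, 95 higher and 88 lower, or 120 and 53 after that scaling (S100G -1.32, adjusted p = 0.359, and ATP2B1 -1.02, adjusted p = 0.264).

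**Figure D2:**
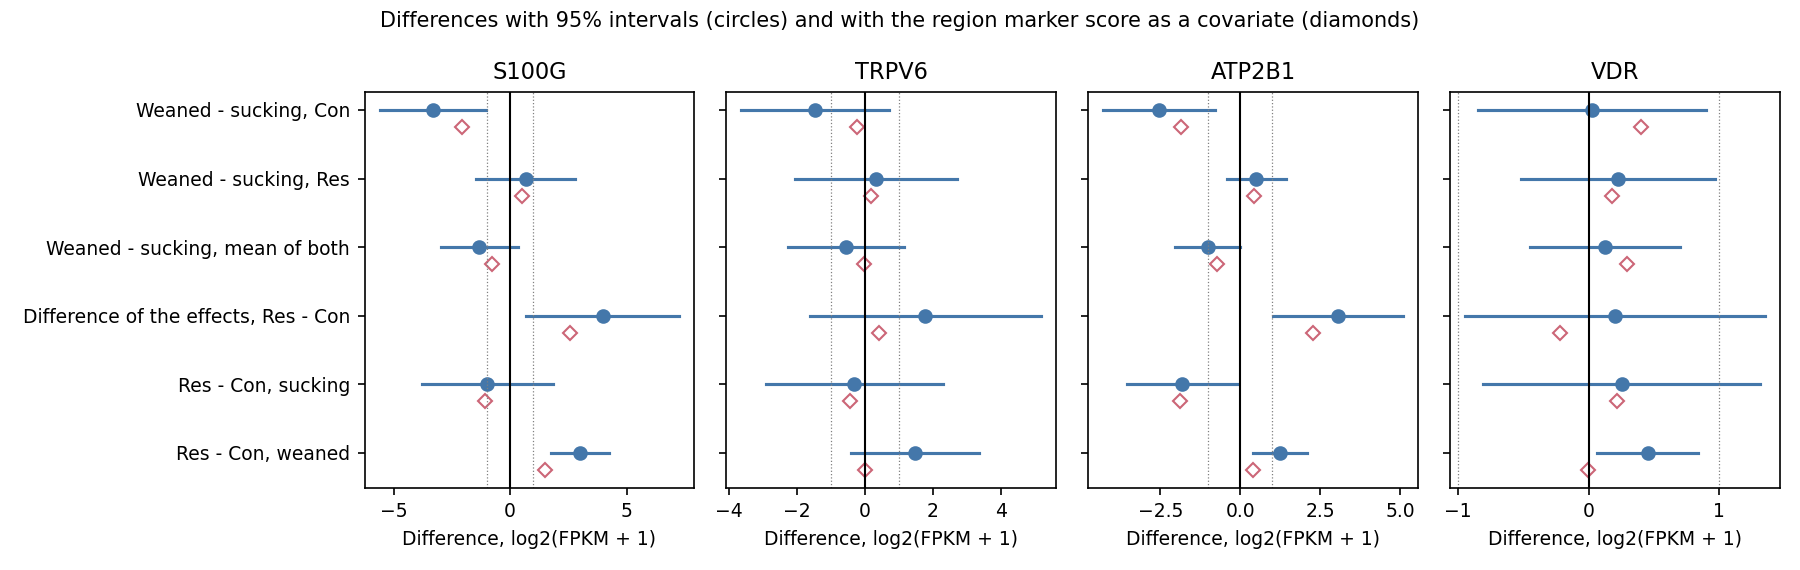
Differences in log2(FPKM + 1) for the 6 comparisons, circles with 95% intervals as fitted and diamonds with the region score as a covariate over 12 libraries; dotted lines mark 1 and -1. The weaning estimates of S100G and ATP2B1 were -3.31 and -2.54 in control litters against 0.67 and 0.51 in resveratrol litters, and no circle of VDR lay beyond 0.45.

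Resveratrol and control litters were then compared at each age. These comparisons reuse the libraries of the weaning comparisons, so that they give the same values from another side. Among weaned piglets S100G was higher in PW_Res by 3.00 (SE 0.53, 95% interval 1.76 to 4.24, adjusted p = 0.222), 36th of 12380 genes in the order of their P values, and its mean FPKM was 9.26 times that of PW_Con. ATP2B1 was higher by 1.24 (SE 0.36, 95% interval 0.40 to 2.07, adjusted p = 0.394). VDR was higher by 0.45 (SE 0.16, 95% interval 0.066 to 0.84, adjusted p = 0.427), inside the fold limit, and TRPV6 differed by 1.48 (SE 0.80, adjusted p = 0.557). So 2 of the 4 genes met the standard, against 1.81% of all genes (106 or 0.856% higher in PW_Res and 118 lower, or 138 and 88 after median-of-ratios scaling), and 3 of the 4 had groups without overlap, against 17.3% (5.44% higher in PW_Res). In the same comparison 7 of 8 proximal markers were higher (2 past the standard) and 7 of 8 distal markers lower (median -1.13, 1 past it), and all 7 lymphocyte markers were lower, by a median of -1.06 against -0.07 over all genes, with 0 past it (limma; 0 at an unadjusted P under 0.05). The part of the lymphocyte markers in the result was not tested.

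Leaving out any 1 of the 6 libraries kept S100G past the standard, with differences from 2.42 to 3.36, whereas ATP2B1 was 0.89 without PW_Res replicate 3. With limma's spread taken from all 12 libraries ATP2B1 also missed the standard (adjusted p = 0.681), and with Ballgown's model so did S100G (2.17, adjusted p = 0.735).

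Among sucking piglets ATP2B1 was lower in W_Res by an estimate of -1.81 (SE 0.75, adjusted p = 0.367) and alone of the 4 genes met the standard, against 4.47% of 13186 genes (394 higher and 196 or 1.49% lower in W_Res, or 299 and 239 after median-of-ratios scaling). That call was lost without W_Con replicate 3 (-0.87), and without W_Res replicate 1, 2 or 3 (-1.94, -2.02 and -1.48). It was also lost with the replicate block, without a filter and at a mean of 5 FPKM (-1.81 in each), and with Ballgown's model (-1.01, adjusted p = 0.921). The ATP2B1 groups did not overlap, as for 21% of all genes. In the same comparison the smooth muscle markers were higher in W_Res by a median of 2.70, with 4 of 5 past the standard, the 10 enterocyte markers had a median of -0.68, with 0 past it (limma; 2 lower at an unadjusted P under 0.05, against 4.4% of all genes), and the 5 lymphocyte markers tested had a median of -0.85, with 2 past it. Their part in the result was not tested beyond the enterocyte score as a covariate, with which ATP2B1 was -2.31. The differences for S100G (-0.97, SE 1.21), TRPV6 (-0.30, SE 1.11) and VDR (0.25, SE 0.46) were smaller than their errors. Without W_Con replicate 3 the sign of S100G turned (0.20), as did that of TRPV6 (0.85).

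All 4 genes were negatively related to the region score, and after adjustment only the relation of S100G passed. As deviations from the 4 group means over 12 libraries, S100G and the score had a Pearson r of -0.90 (exact permutation p = 0.000772, the smallest that 1296 pairings allow, Benjamini-Hochberg 0.0154 over 20 relations to marker scores) and a Spearman rho of -0.87 (p = 0.000772). Without the 2 libraries farthest from the median score r was -0.90 for S100G, -0.77 for TRPV6, -0.62 for ATP2B1 and -0.90 for VDR (exact permutation p = 0.00694, 0.0139, 0.139 and 0.125). For TRPV6 the r was -0.84 (exact permutation p = 0.0262, adjusted 0.131, rho -0.71), for ATP2B1 -0.80 (p = 0.0208, adjusted 0.131, rho -0.74) and for VDR -0.82 (p = 0.0386, adjusted 0.154, rho -0.69). The libraries with FABP6 at or under 12.2 FPKM were those with the highest S100G in their group. With the enterocyte score r lay between -0.69 and -0.57, and for VDR its exact permutation p of 0.0131 (adjusted 0.131, rho -0.73) was below that of the region score. With smooth muscle, lymphocyte and crypt scores r lay between -0.46 and 0.18. Without the 2 farthest libraries S100G and TRPV6 had r of -0.76 and -0.68 with the crypt score (exact permutation p = 0.00694 and 0.0278) and ATP2B1 -0.72 with the smooth muscle score (p = 0.125).

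**Figure D3:**
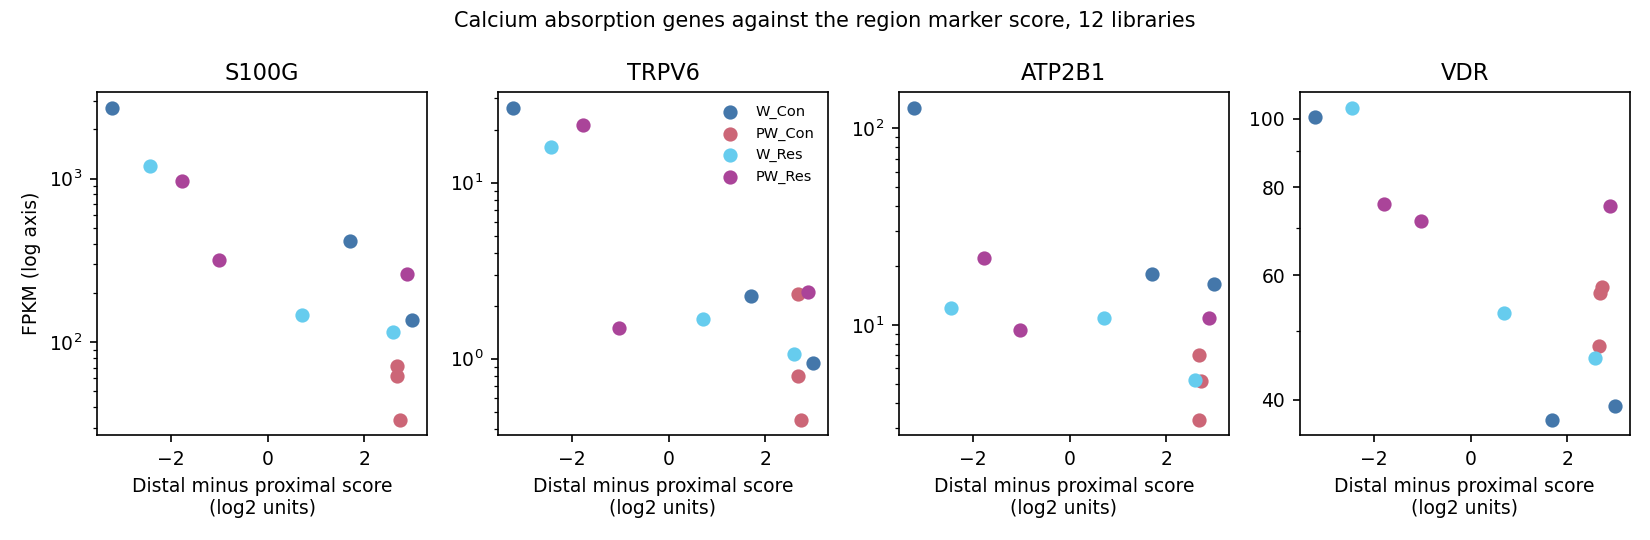
FPKM (log axis) of the 4 genes against the region score, distal minus proximal markers in log2 units, for 12 libraries coloured by group. The PW_Con libraries sit together near a score of 2.7 with the lowest S100G levels, 33.6 to 71.6 FPKM, and W_Con replicate 3, at -3.23, has the highest, 2715 FPKM.

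The region score and the groups are partly aligned, since all PW_Con libraries were distal-like and 2 of the 3 PW_Res libraries were not. The comparisons were therefore repeated with the score as a covariate over all 12 libraries. The study reports FABP6, SLC51A, PYY and ENSSSCG00000026317 (SLC10A2), which are among the distal markers, as increased in weaned piglets. ENSSSCG00000027157 (SLC40A1), a proximal marker, is among its down-regulated genes of mineral absorption, as are S100G and TRPV6. Whether the score itself carries a response to weaning was not tested, and a covariate that did would take out part of the effect. The weaning difference in control litters became -2.05 for S100G (adjusted p = 0.140) and -1.85 for ATP2B1 (adjusted p = 0.125), both past the standard, against 3.87% of all genes in that fit, and -0.23 for TRPV6. The difference between the weaning effects became 2.57 for S100G and 2.28 for ATP2B1, also past it, against 7.62% of all genes. The resveratrol difference in weaned piglets became 1.48 for S100G (adjusted p = 0.795), 0.41 for ATP2B1 (adjusted p = 0.933), 0.02 for TRPV6 and -0.0039 for VDR, so that only S100G stayed past the standard, against 1.73% of all genes. In sucking piglets ATP2B1 became -1.88, past the standard, against 5.07% of all genes.

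The same comparisons were repeated on the 8 libraries with a score above 0, which leave 1 library in PW_Res, assumed to vary like the others. These libraries were chosen after seeing the data, by a score to which S100G is related. In control litters this left out only W_Con replicate 3. The weaning differences, -2.14 for S100G and -1.60 for ATP2B1, were therefore those already given without that library and are no separate check. The differences between weaning effects, 3.15 and 2.06 (adjusted p = 0.698 and 0.720), and those between PW_Res and PW_Con, 2.28 for S100G and 0.98 for ATP2B1 (adjusted p = 0.729 and 0.832), rest on that single PW_Res library, and no call is made from them. It was replicate 1, with a score of 2.89 and 262 FPKM of S100G.

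How far the 3 transport genes went with VDR was asked within each age. In sucking piglets the Pearson r with VDR was 0.83 for S100G (exact permutation p = 0.0611), 0.94 for TRPV6 (p = 0.0403) and 0.50 for ATP2B1 (p = 0.369), over 6 libraries, and the Spearman rho 0.54, 0.60 and -0.09. Without W_Con replicate 3 and W_Res replicate 2, r was -0.58, -0.09 and -0.60, so that the relation rested on those libraries. In weaned piglets r was 0.81, 0.61 and 0.70 (exact permutation p = 0.0597, 0.193 and 0.114). Without PW_Con replicate 1 and PW_Res replicate 3 it was 0.94, 0.40 and 0.96 (exact permutation p = 0.25, 0.667 and 0.125). The weaned groups did not overlap in VDR, S100G or ATP2B1, and the relation within each weaned group was not tested. As deviations from group means over 12 libraries r was 0.85, 0.82 and 0.79 (rho 0.66, 0.79 and 0.66), and -0.18, 0.21 and 0.07 without W_Con replicate 3 and W_Res replicate 2. After Benjamini-Hochberg adjustment over 18 relations no relation to VDR was below 0.0889.

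The channel and the calbindin were set side by side as well. S100G and TRPV6 had r = 0.97 in sucking piglets (exact permutation p = 0.00278, adjusted 0.0486, rho 0.94) and 0.94 as deviations over 12 libraries (exact permutation p = 0.0054, adjusted 0.0486, rho 0.85). By Spearman's rho the adjusted exact permutation p was 0.1 for both. Without the 2 farthest libraries r was 0.87 in sucking piglets (exact permutation p = 0.0833) and 0.92 as deviations (p = 0.0486). In weaned piglets the r of 0.82 became 0.24 without PW_Res replicate 3 and PW_Con replicate 3. S100G and ATP2B1 had r = 0.78 in sucking and 0.91 in weaned piglets, with adjusted exact permutation p of 0.0889 and 0.0625. All these genes share the region score, and their relations apart from it were not tested.

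**Figure D4:**
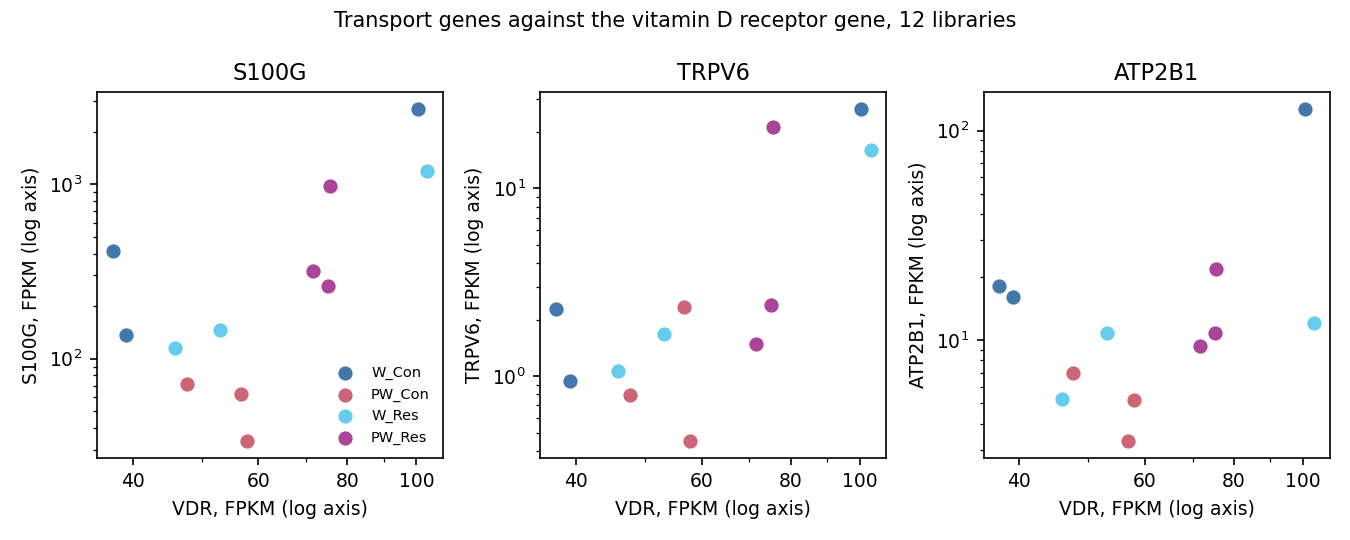
FPKM of S100G, TRPV6 and ATP2B1 against FPKM of VDR (both axes log) in 12 libraries coloured by group. The 2 sucking libraries above 100 FPKM of VDR carry the relation in sucking piglets, and the W_Con libraries near 38 FPKM of VDR have more S100G than any PW_Con library.

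Genes of the wider pathway were taken from 8 lists covering calcium entry, buffering, exit, vitamin D handling, tight junctions, hormones and intracellular stores. Of 59 genes 46 were matched, and 37 were tested in control litters, of which 22 were higher and 15 lower after weaning, with a median log2 fold change of 0.07 against -0.02 over all genes. The standard was met by 1 in the direction of a rise and 2 of a fall, where 1.5% and 1.82% of all genes met it. In resveratrol litters 12 were higher and 25 lower, with a median of -0.18 against -0.16 over all genes, and 1 rose and 1 fell, where 0.991% and 3.76% of all genes did. Between litter sets in weaned piglets 38 were tested, and 1 was higher and 0 lower in PW_Res (limma; at an unadjusted P under 0.05 alone, 2 were lower, against 6.77% of all genes), where 0.856% and 0.953% of all genes were. In the difference between the weaning effects 1 of 37 met the standard in the direction of a larger value in resveratrol litters and 4 in the other, where 1.81% and 5.95% of all genes did.

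Among entry genes TRPM6, a magnesium channel of the apical membrane, was 2.70, 5.61 and 1.58 FPKM in W_Con and 0.947, 0.327 and 0.878 FPKM in PW_Con, and fell by 1.23 on the log2 scale (adjusted p = 0.170). Its relative TRPM7 was the most abundant of that list, at 2.97 to 6.41 FPKM over the 12 libraries. CACNA1D, a voltage-gated calcium channel, stayed between 0.473 and 2.19 FPKM.

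Among exit genes ATP2B4, another plasma membrane calcium pump, was 5.90, 3.12 and 3.18 FPKM in W_Con and 1.01, 0.798 and 0.769 FPKM in PW_Con, and fell by 1.40 (SE 0.25, adjusted p = 0.117). In resveratrol litters its difference was -0.53 (adjusted p = 0.674), and the difference between litter sets, 0.87, did not pass (adjusted p = 0.553). SLC8B1, the mitochondrial sodium-calcium exchanger, rose in control litters by 1.05 (adjusted p = 0.274), from 20.1, 38.3 and 47.1 to 111, 77.0 and 39.6 FPKM, with overlap. ATP2B2, another plasma membrane calcium pump, was the most abundant of that list, at 98.7 to 178 FPKM, and its weaning effects differed by 0.68 (SE 0.32, adjusted p = 0.373) and its weaned groups by 0.43 (SE 0.18, adjusted p = 0.485), neither past the standard. SLC8A2, a plasma membrane sodium-calcium exchanger, was at 7.80 FPKM in W_Res replicate 2 and at 2.30 FPKM or less elsewhere, and met the standard between W_Res and W_Con (1.36, adjusted p = 0.365) and between PW_Res and W_Res (-1.21, adjusted p = 0.370).

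Among buffer genes and channel partners 6 were tested, and none met the standard in any of the 6 comparisons (limma), nor did any reach an unadjusted P under 0.05. CALM3, which encodes the calcium sensor calmodulin, was the most abundant buffer gene, at 499 to 698 FPKM. The channel partners of TRPV6, S100A10 and ANXA2, were at 79.4 to 292 and 234 to 878 FPKM.

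In vitamin D signalling RXRG, a retinoid X receptor and so a possible dimer partner of VDR, was higher in PW_Res. It was 16.4, 10.1 and 9.59 FPKM there and 4.74, 4.93 and 3.64 FPKM in PW_Con, a difference of 1.23 (SE 0.24, adjusted p = 0.317). It also rose with weaning in resveratrol litters (1.34, adjusted p = 0.311), and the 2 weaning effects differed by 1.11 (adjusted p = 0.252). RXRB stayed between 6.32 and 13.9 FPKM. CUBN, an endocytic receptor also counted among the distal markers, spanned 0.149 to 76.7 FPKM and met the standard in no comparison. CYP24A1, the 24-hydroxylase that degrades the hormone and a sensitive VDR target, was listed at 0 in 7 of the 12 libraries and reached at most 1.79 FPKM, in PW_Res replicate 1. CYP27A1, a mitochondrial sterol hydroxylase, was at 6.11 FPKM in W_Res replicate 2 and at 0.963 to 3.05 FPKM in the others, and its weaning effects differed by -1.06 (adjusted p = 0.331). PDIA3, a chaperone also described as a membrane binding protein for vitamin D, was at 105 to 230 FPKM with no call. SLC37A2, a sugar phosphate transporter counted among vitamin D targets, was highest in W_Con replicate 3 and W_Res replicate 2, at 37.1 and 28.1 FPKM, the libraries highest in VDR.

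Between cells, the tight junction genes OCLN, TJP1 and CLDN12 met the standard in none of the comparisons, with 11.2 to 22.3 FPKM for OCLN and 12.1 to 18.9 FPKM for TJP1. All 3 had weaning estimates below 0 in both litter sets, as had 51.8% of all genes in control and 65.9% in resveratrol litters, and 2 of the 3 had an unadjusted P under 0.05 in control litters, OCLN at -0.40 (adjusted p = 0.259) and CLDN12 at -0.51 (adjusted p = 0.260), where 8.38% of all genes were lower at that threshold. In the mean effect 2 of 3 did, OCLN at -0.36 (adjusted p = 0.164) and TJP1 at -0.27 (adjusted p = 0.245), against 12.5% of all genes. Of the hormone genes PTH1R, the parathyroid hormone receptor, and STC2, a stanniocalcin, had weaning effects that differed between litter sets by -1.06 (adjusted p = 0.284) and -1.25 (adjusted p = 0.263). Both were highest in W_Res replicate 2, at 6.29 and 3.12 FPKM. ATP2A3, a pump that fills the endoplasmic reticulum with calcium, differed likewise by -1.18 (adjusted p = 0.351), and its lowest levels, 7.83 and 7.81 FPKM, were in W_Con replicate 3 and PW_Res replicate 3. In control litters the inositol trisphosphate receptor genes ITPR1 and ITPR2 were lower after weaning, at -0.58 and -0.65 (limma, adjusted p = 0.251 and 0.201). They were the 2 of 9 store genes lower at an unadjusted P under 0.05, against 8.38% of all genes. ITPR3 was higher at that threshold, at 0.71 (limma, adjusted p = 0.258), and the study lists it as up-regulated. None of these receptor genes met the standard.

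**Figure D5:**
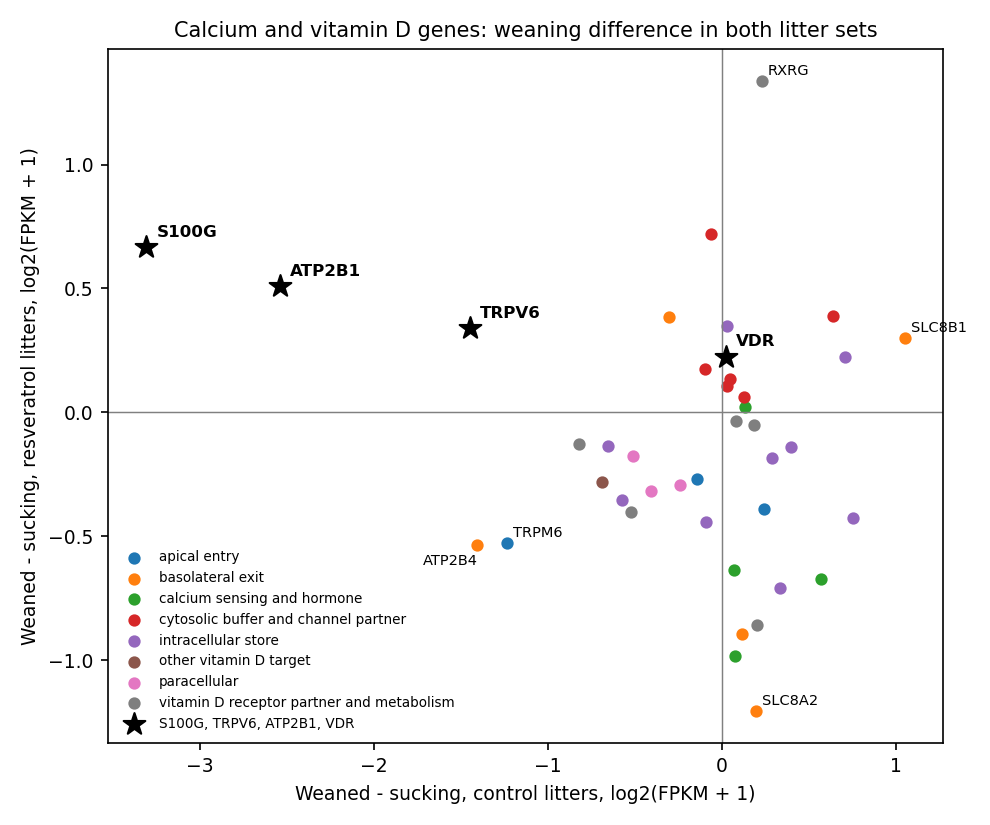
Weaned minus sucking difference in log2(FPKM + 1) of calcium and vitamin D genes in control litters (x axis) and resveratrol litters (y axis), coloured by list, with S100G, TRPV6, ATP2B1 and VDR as stars; genes past 1 or -1 on an axis are named. S100G and ATP2B1 lie farthest left, at -3.31 and -2.54, and slightly above 0 on the y axis.

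Likeness was measured as Pearson's r of log2(FPKM + 1) over the 12 libraries among 9273 genes that carry a symbol and average 1 FPKM or more, and it is a description, since the libraries share region and age. Nearest to S100G were HACL1 (r = 0.93), PCDH15 (0.92), PRDM16 (0.91), TRPV6 (0.90) and CDC42BPB (0.89), and VDR ranked 198th. Nearest to TRPV6 were TREH (0.94), DTNA (0.90), S100G (0.90), PRDM16 (0.89) and TERB2 (0.86). PRDM16, a transcriptional regulator, was thus on both lists, with 2.85 to 7.26 FPKM in the 4 libraries with a region score below 0 and at most 0.782 FPKM in the others. TREH, the brush border trehalase, was at 1.05 to 12.8 FPKM in those 4 libraries and at most 0.886 FPKM elsewhere. Nearest to ATP2B1 were IQGAP2 (0.96), BCL2L12 (0.95), TMEM65 (0.94), ALDH5A1 (0.93) and SEC23A (0.93), and to VDR IGKV (0.88), TKFC (0.84), SLC35C2 (0.84), SLC25A37 (0.82) and TPCN2 (0.82). No gene was shared between the lists of ATP2B1 or VDR and those of the other members.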

How the data were processed

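Poly(A) RNA of 12 jejunum samples was sequenced as paired ends, and the authors assembled loci and deposited FPKM per locus, with StringTie 1.3.0 and the pig build Sscrofa10.2 per the submitters' processing notes. Those notes also list HISAT2 2.0, Bowtie 0.12.2 and mm8, whereas the study's methods name TopHat, so the aligner is uncertain. The deposited FPKM hold no counts, so the fragments behind a value are not known and no counting interval is given. Rows without a gene name (17650, 42.8%, 5.48 to 8.47% of summed FPKM) were left out.

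Rows that share a name were summed, log2(FPKM + 1) was taken, genes averaging 0.5 FPKM or more over a fit's libraries were tested with limma 3.58.1 (lmFit, eBayes with a trend) in R 4.3.3, and P values were adjusted over all genes by Benjamini-Hochberg. The 4 genes passed that filter in all 6 comparisons. On simulated data 91.5 to 98% of 200 genes changed by a log2 fold change of 2 were recovered. Those genes were drawn from genes with a mean log2(FPKM + 1) above 2, each with its own normal spread. The share does not give the power for S100G or TRPV6, whose SEs reached 1.50 and 1.55 in the difference between weaning effects. Exact tests used scipy 1.17.1. Genes, lists and tests were chosen with earlier results of these data known. Unadjusted P values set the study's standard. Named pathway genes were those that met the standard in any comparison, CYP24A1, and store genes with an unadjusted P under 0.05 in control litters. Others were named by mean FPKM, at most 3 of a list, except in the hormone and store lists. Alternatives covered pseudocount, filter, scaling, variance model, replicate block, rows per gene, marker scores and leaving out libraries. The restriction to libraries with a region score above 0, a shorter region score and the relations to marker scores were added after seeing the data. No sequences were used. A gene of the pathway lists is not reported here and was left out of their counts.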

Additional observations from a re-analysis of the deposited data

Results flagged for a closer look

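The weaning effect differed between resveratrol and control litters for S100G and ATP2B1 by the test of that difference at the study's unadjusted standard, and neither passed after adjustment over all genes. For S100G it was 3.97 on the log2 scale (limma, adjusted p = 0.298), with all 3 PW_Con libraries below all 3 W_Con libraries and overlap in resveratrol litters. For ATP2B1 it was 3.05 (limma, adjusted p = 0.251), with the same pattern of overlap. With Ballgown's model neither met that standard (2.94 and 1.80), and S100G missed it on leaving out 4 of the 12 libraries in turn. The smooth muscle markers, the region score and the age differ between the same libraries. The region score was fitted as a covariate, smooth muscle was not tested, and age cannot be told apart from weaning.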

How the results depend on the processing

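Of 499 recomputed values with another setting, 436 kept their direction and their side of the threshold, or, for counts, stayed within 1.5 times, as did 307 of 384 with 1 library left out. In control litters the falls of S100G and ATP2B1 met the standard under every setting run. Counting error cannot be given, since the table holds no counts, and the cause of the changes below was not tested unless the setting itself shows it.

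The number of genes that met the standard was, with a pseudocount of 0.1, 853 for weaning in control litters, 1163 in resveratrol litters, 591 for their mean, and 1008 and 488 for resveratrol in sucking and weaned piglets. With only genes averaging 5 FPKM or more, and so fewer tested, it was 227, 245, 118, 248 and 122, and 364 for the difference between weaning effects. With Ballgown's model it was 230 for weaning in resveratrol litters, 291 for the difference, and 178 and 342 for resveratrol in sucking and weaned piglets. On the 8 libraries with a region score above 0, a setting chosen after seeing the data, it was 348 and 407 for the latter, the 407 resting on a single PW_Res library. Median-of-ratios scaling moved the median of all genes from -0.16 to 0.01 for weaning in resveratrol litters.

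With Ballgown's model the weaning difference in control litters was -1.77 for TRPV6, past the standard, and -0.093 for VDR. The mean effect was -1.73 for ATP2B1, past it, and -0.012 for VDR. The difference between effects was 2.94 for S100G and 1.80 for ATP2B1, both short of it, and -0.037 for VDR. The resveratrol difference was -1.01 for ATP2B1 and 0.11 for TRPV6 in sucking piglets, and 2.17 for S100G and 1.03 for ATP2B1 in weaned piglets, all short of it.

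With the enterocyte score as a covariate the control weaning difference was -1.998 for TRPV6 and -0.16 for VDR, the mean effect -1.52 for S100G and -1.12 for ATP2B1, and the resveratrol difference -0.073 for VDR in sucking and 1.11 for ATP2B1 in weaned piglets. The TRPV6 value and both mean effects met the standard, and ATP2B1 no longer did. With the region score the difference between effects was -0.22 for VDR, and in weaned piglets ATP2B1 was 0.41 and VDR -0.0039. With the shorter region score, without mineral, folate and cobalamin uptake genes and also chosen after seeing the data, those of VDR and ATP2B1 were -0.17 and 0.52. On the 8 libraries the mean effect of TRPV6 was 0.12 and ATP2B1 in weaned piglets 0.98. ATP2B1 in weaned piglets was 1.24 with the spread of all 12 libraries and short of the standard. The mean effect of ATP2B1 met it with a pseudocount of 0.1 (-1.09). TRPV6 dropped out in weaned piglets at 5 FPKM.

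The replicate numbers did not pair the libraries (r of same-numbered libraries' deviations -0.26 to 0.11). With the replicate block, ATP2B1 in sucking piglets, at -1.81, missed the standard (adjusted p = 0.402), as it did without a filter or at 5 FPKM, also at -1.81. Counts with the replicate block were 188 to 1059 against 183 to 1000, and the block changed no other call of the 4 genes.

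With 1 library left out, the control weaning difference ranged from -2.21 (without W_Con replicate 1, past the standard) to -0.30 for TRPV6 and -0.22 to 0.48 for VDR. That in resveratrol litters ranged from 0.048 to 1.73 (without W_Res replicate 2, past the standard) for S100G, -0.64 to 1.29 for TRPV6 and -0.0023 to 0.58 for VDR, with 388 to 1049 genes past the standard. The mean effect ranged from -1.81 to -0.74 for S100G, -1.05 to 0.020 for TRPV6 and -1.27 to -0.54 for ATP2B1, and met the standard without W_Con replicate 1 for S100G and ATP2B1, and for ATP2B1 also without W_Con replicate 2, W_Res replicate 3 or PW_Res replicate 3. The difference between effects ranged from 2.80 to 5.04 for S100G, which missed the standard without W_Con replicate 3, W_Res replicate 1, W_Res replicate 3 or PW_Res replicate 3, and -0.26 to 0.55 for VDR, with 633 to 1367 genes. For resveratrol in sucking piglets the ranges were -2.04 to 0.20 for S100G, -1.25 to 0.85 for TRPV6, -2.32 to -0.87 for ATP2B1, which missed the standard without W_Con replicate 3 or any W_Res library, and -0.10 to 0.71 for VDR, with 394 to 944 genes. In weaned piglets they were 0.50 to 2.09 for TRPV6, which met the standard without PW_Res replicate 2, and 0.89 to 1.46 for ATP2B1, which missed it without PW_Res replicate 3, with 222 to 426 genes.

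In relations, median-of-ratios scaling gave S100G with VDR 0.86 in sucking piglets, 0.87 in weaned piglets and 0.87 over 12 libraries, each past an unadjusted exact p of 0.05, and quantile normalization gave TRPV6 with VDR 0.92 and 0.82, short of it. Without the 2 libraries farthest from the median, r in sucking piglets was -0.58 for S100G with VDR, -0.092 for TRPV6 with VDR, -0.60 for ATP2B1 with VDR, 0.87 for S100G with TRPV6, -0.051 for S100G with ATP2B1 and -0.36 for TRPV6 with ATP2B1. In weaned piglets r was 0.24 for S100G with TRPV6 and 0.96 for S100G with ATP2B1, and over all groups, as deviations from group means, -0.18 for S100G and 0.21 for TRPV6 with VDR, and 0.64 and 0.63 for S100G and TRPV6 with ATP2B1. With 1 library left out, r in sucking piglets was 0.91 to 0.98 for TRPV6 with VDR, -0.15 to 0.79 for ATP2B1 with VDR and 0.38 to 0.95 for S100G with ATP2B1. In weaned piglets it was 0.60 to 0.91 for ATP2B1 with VDR, 0.60 to 0.92 for S100G with TRPV6, 0.80 to 0.96 for S100G with ATP2B1 and 0.11 to 0.97 for TRPV6 with ATP2B1. Over 12 libraries it was 0.68 to 0.95 for TRPV6 and 0.37 to 0.86 for ATP2B1 with VDR, and 0.63 to 0.88 for S100G and 0.64 to 0.87 for TRPV6 with ATP2B1.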
